A study of Homo sapiens with 12 samples.

Results

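Genes whose products copy DNA and supply its building blocks were measured in Caco-2 cells, an established human colorectal cancer line. They are 50 listed genes, chosen by symbol and sorted by function. They cover the licensing of origins, the replicative helicase, the polymerases and primase, the sliding clamp with its loader and the enzymes of the lagging strand, the single-strand binding protein, deoxynucleotide supply, and the copying of chromatin and DNA methylation. Of the 50 genes, 49 had a probe detected on at least 3 of the 12 arrays, among 12566 genes in all, and PRIM2, the large primase subunit, had none.

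Replication starts at sites marked by the origin recognition complex (ORC), where CDC6 and CDT1 load the ring of MCM2 to MCM7 and geminin (GMNN) restrains CDT1 once S phase has begun. CDC45 and the GINS complex turn that ring into the moving helicase, polymerases then copy both strands, and ribonucleotide reductase, thymidylate synthase and dUTPase keep the nucleotide pool in order. Many of these genes are transcribed most around the start of S phase under E2F factors, so in intestinal epithelium they are known as genes of dividing crypt cells rather than of differentiated cells.

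The arrays fell into 4 groups of 3. One line was labelled as carrying an shRNA against LRH-1 (a nuclear receptor, gene NR5A2) whose expression doxycycline induces, and it was sampled 96 hours after 5 µg/ml doxycycline or without it. The other was a control line, called native in the sample titles but a vector with a non-silencing sequence in the genotype label, and it was sampled in the same way. Which of the hairpin sequences named in the design was used, and whether the lines were clones, is not stated in the labels, nor is it stated whether the 3 arrays of a group come from separate cultures. All p-values therefore rest on the spread among arrays, which may be technical.

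NR5A2 did not settle the shRNA label. It was higher with doxycycline in the shRNA-labelled line, by 0.50 on the log2 scale (adjusted p = 0.00995), and higher with it in the control line too, by 0.89 (adjusted p = 0.000384). With doxycycline in both lines NR5A2 was lower in the shRNA-labelled line, at a difference of -0.38 with no overlap of arrays (adjusted p = 0.0216), a call lost under 5 of 24 alternatives, while the untreated lines differed by 0.00 (adjusted p = 0.983). The smaller rise in the shRNA-labelled line did not pass as a difference of responses (-0.39, adjusted p = 0.231). These values do not settle whether LRH-1 was silenced, so no difference below is tied to its loss, and the line is called shRNA-labelled throughout. The 8 epithelial markers, among them EPCAM, CDH1 and VIL1, were detected on all 12 arrays, and KRT18 alone of them passed a test, as given with the markers below. Median intensity per array lay between 251 and 386, between 41.2% and 44.7% of probes were detected, and replicates correlated at 0.987 to 0.993 across genes. Signals below are log2 of background-corrected and quantile-normalised intensity, each from the brightest probe of the gene, and can be compared between groups for a gene but not between genes.

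Doxycycline went with lower signals of replication genes in both lines, and more members passed the test in the control line. In the shRNA-labelled line 17 of the 49 genes fell and 0 rose at an adjusted p under 0.05, where 5.01% of all genes tested fell and 6.49% rose. GINS4, 1 of the 17, entered the tests only through arrays of that line, and 16 of 48 fell without it. In the control line 33 fell and 1, GINS1, rose, where 8.11% of all genes tested fell and 7.88% rose. The median difference of the members was -0.35 in the shRNA-labelled line, against -0.02 over all genes, and -0.61 in the control line, against -0.01 over all genes. All doxycycline arrays lay below all untreated arrays for 35 members in the shRNA-labelled line, where 15.5% of all genes tested did so, and for 39 members in the control line, where 17% did so. Both counts include GINS4, although its probe was not detected in the control line. Since RNA came from whole cultures, fewer cycling cells and less of these mRNAs per cell cannot be told apart.

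**Figure D1:**
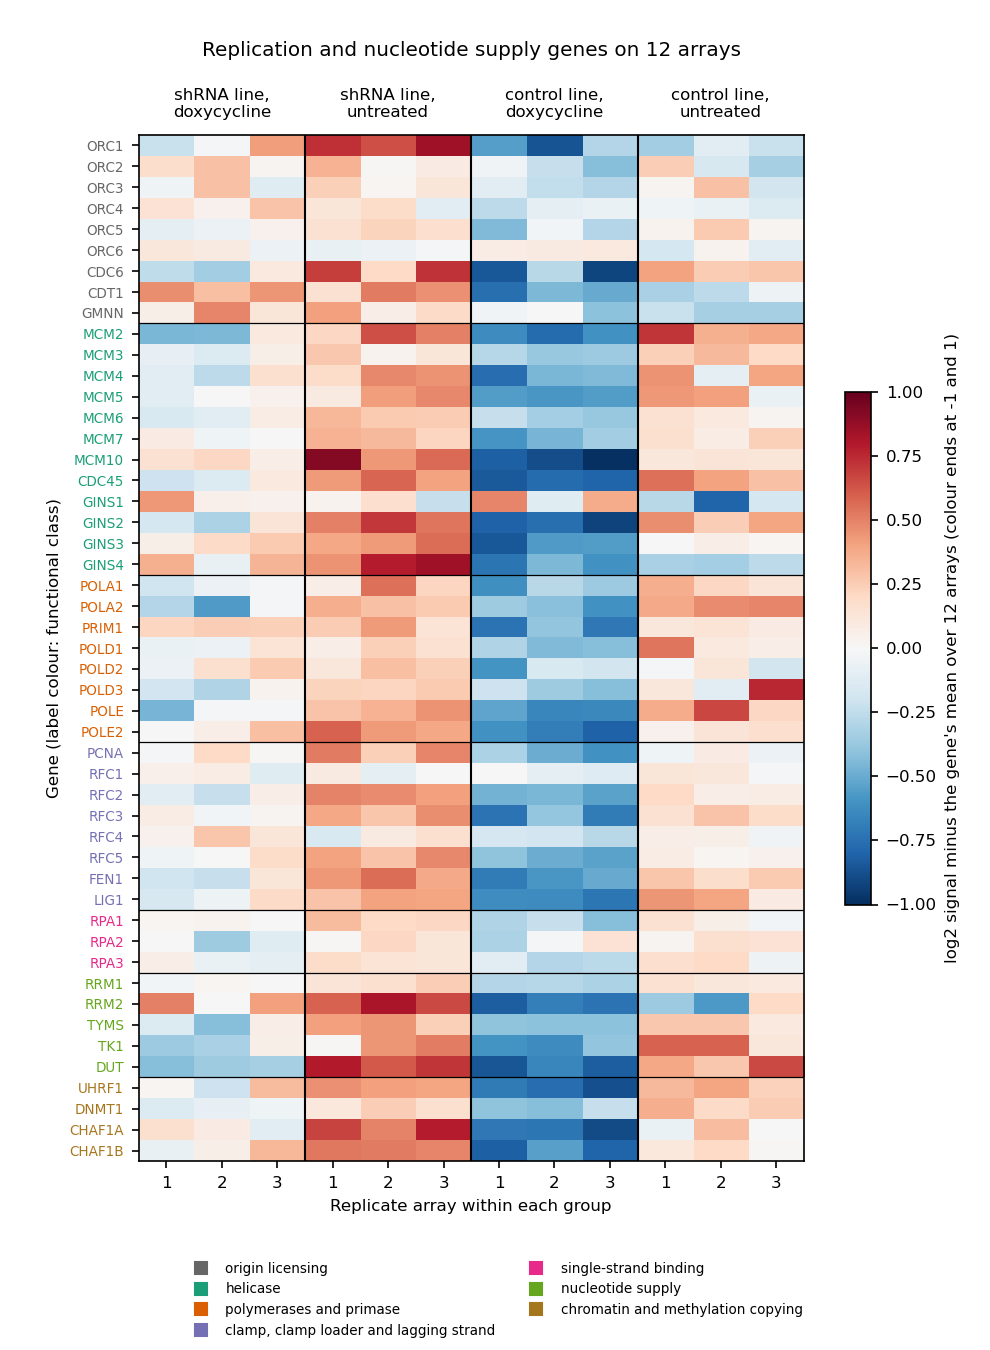
Each cell is the log2 signal of a gene on an array minus that gene's mean over the 12 arrays, with genes in rows by functional class and arrays in columns by group. The untreated shRNA-labelled arrays are mostly red and the doxycycline arrays of the control line mostly blue, while the doxycycline arrays of the shRNA-labelled line and the untreated control arrays lie between them.

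Each array can be summarised by where the members lay on it. The median deviation of the 49 genes from their own means was -0.04, -0.03 and 0.07 on the doxycycline arrays of the shRNA-labelled line, against 0.32, 0.33 and 0.38 on its untreated arrays. In the control line it was -0.55, -0.44 and -0.44 with doxycycline, against 0.15, 0.13 and 0.08 without. The 4 groups did not overlap in this summary. The doxycycline group of the control line had the lowest mean for 45 of the 49 genes, and the untreated shRNA-labelled group had the highest for 33. GINS4, kept only through the shRNA-labelled line, is counted in both.

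Promoter sequences are shown for the members with the smallest adjusted p in the control line's doxycycline comparison in each of 4 classes, CDC45, POLE2, LIG1 and DUT, and for GINS2, which was added after its values and motifs were seen because it holds both motifs searched. Each is the 250 bases before the start of the gene, 5′ to 3′ on the gene's own strand, from RefSeq, build GRCh38.p14. Capitals mark the E2F-type words TTTGGCGC, TTTGCCGC, TTTCGCGC and TTTCCCGC and the CCAAT box, on either strand. Promoters were at hand for 44 of the 50 members, and for genes with several listed starts the first was used. The DUT window is the first of 4 listed starts and the CDC45 window the first of 3.
CDC45 (chr22:19479670-19479919, plus strand): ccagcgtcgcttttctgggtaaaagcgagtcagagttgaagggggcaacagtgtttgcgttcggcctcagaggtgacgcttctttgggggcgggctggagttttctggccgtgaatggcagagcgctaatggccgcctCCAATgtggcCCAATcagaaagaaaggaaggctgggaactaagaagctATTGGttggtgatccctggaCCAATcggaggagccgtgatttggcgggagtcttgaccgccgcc
POLE2 (chr14:49688215-49688464, minus strand): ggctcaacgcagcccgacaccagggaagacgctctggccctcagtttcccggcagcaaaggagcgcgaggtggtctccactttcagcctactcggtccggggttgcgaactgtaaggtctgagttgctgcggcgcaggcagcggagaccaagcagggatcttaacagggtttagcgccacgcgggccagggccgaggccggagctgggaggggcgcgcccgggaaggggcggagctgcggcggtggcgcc
LIG1 (chr19:48170345-48170594, minus strand): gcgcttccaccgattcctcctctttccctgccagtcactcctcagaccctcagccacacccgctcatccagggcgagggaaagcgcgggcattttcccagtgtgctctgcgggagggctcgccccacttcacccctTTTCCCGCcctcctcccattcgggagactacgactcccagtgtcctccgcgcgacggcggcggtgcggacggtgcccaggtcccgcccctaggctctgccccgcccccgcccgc
DUT (chr15:48330845-48331094, plus strand): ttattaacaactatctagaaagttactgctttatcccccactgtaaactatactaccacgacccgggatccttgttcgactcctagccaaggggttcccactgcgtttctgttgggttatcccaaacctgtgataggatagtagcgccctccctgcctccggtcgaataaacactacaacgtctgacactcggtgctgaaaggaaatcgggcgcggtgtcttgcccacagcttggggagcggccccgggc
GINS2 (chr16:85688955-85689204, minus strand): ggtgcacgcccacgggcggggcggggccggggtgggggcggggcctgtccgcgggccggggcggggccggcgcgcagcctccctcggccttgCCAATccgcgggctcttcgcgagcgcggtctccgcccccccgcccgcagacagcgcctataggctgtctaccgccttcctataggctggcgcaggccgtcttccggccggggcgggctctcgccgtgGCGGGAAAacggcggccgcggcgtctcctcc
CDC45 held 4 CCAAT boxes and no E2F-type word, LIG1 held 1 E2F-type word and no CCAAT box, and GINS2 held 1 of each. The POLE2 and DUT windows held none of these letters. An E2F-type word was found before 14 of the 44 members (31.8%), against 761 of 27305 genes in the table (2.79%). Among the members that fell in the control line it was found before 12 of 30 (40.0%), and among the other members before 2 of 14 (14.3%), CDT1 and ORC3. A CCAAT box was found before 24 of the 44 members (54.5%), against 33.0% of all genes in the table, with 16 of 30 (53.3%) among the members that fell in the control line and 8 of 14 (57.1%) among the others. Both motifs stood before 9 members (20.5%), against 1.08% of all genes. A match describes the letters of the window and is not evidence of a bound factor.

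Few origin licensing genes passed the test. ORC1 and CDC6 fell with doxycycline in the shRNA-labelled line, which is 2 of 9 genes where 5.01% of all genes tested fell. CDC6 alone fell in the control line, which at 1 of 9 (11.1%) is near the 8.11% of all genes tested. None rose in either line, and a second ORC6 probe, given with the probes below, passed as lower in both. ORC1, the largest ORC subunit and the one whose level follows the cell cycle, had log2 signals of 7.83, 8.03 and 8.47 with doxycycline in the shRNA-labelled line, against 8.79, 8.70 and 8.90 without it. The groups did not overlap, and the fall was 0.68 on the log2 scale (SE 0.17, adjusted p = 0.0259). ORC1 in the control line had 7.50, 7.19 and 7.76 with doxycycline, against 7.70, 7.94 and 7.83 without it. These overlapped, and the difference of -0.34 (SE 0.17) did not pass (adjusted p = 0.212).

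CDC6, the loader that sits on ORC, had 6.75, 6.65 and 7.10 with doxycycline in the shRNA-labelled line, against 7.70, 7.20 and 7.73 without it, a fall of 0.71 (SE 0.19, adjusted p = 0.0356). CDC6 in the control line had 6.15, 6.73 and 6.08 with doxycycline, against 7.40, 7.25 and 7.28 without it, a fall of 0.99 (SE 0.19, adjusted p = 0.0055). Its probe was detected on only 1 of the 3 doxycycline arrays of the control line, so the size of that fall rests on signals near background. CDT1, the partner of CDC6 in loading the ring, showed no such shift in the shRNA-labelled line, with 12.04, 11.88 and 12.02 with doxycycline, against 11.72, 12.09 and 12.03 without it. Control-line signals of CDT1 lay at 10.82, 11.12 and 11.07 with doxycycline, against 11.25, 11.31 and 11.52 without it, and the difference of -0.36 (SE 0.13) missed the threshold (adjusted p = 0.0829). Geminin differed by 0.00 in the shRNA-labelled line and by 0.15 in the control line, and neither passed. ORC2, ORC3, ORC4 and ORC5 differed by between -0.36 and 0.09 in the 2 lines and did not pass in either.

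The helicase genes fell broadly. With doxycycline 6 of the 12 fell in the shRNA-labelled line, namely MCM2, MCM6, MCM10, CDC45, GINS2 and GINS4, where 5.01% of all genes tested fell. GINS4 entered the tests only through arrays of that line, and 5 of 11 fell without it. In the control line 10 of the 12 fell, where 8.11% of all genes tested fell. CDC45, which joins the MCM ring to make it active, had 11.09, 11.17 and 11.40 with doxycycline in the shRNA-labelled line, against 11.73, 11.88 and 11.71 without it, a fall of 0.55 (SE 0.11, adjusted p = 0.00684). CDC45 in the control line had 10.46, 10.53 and 10.51 with doxycycline, against 11.85, 11.71 and 11.60 without it, a fall of 1.22 (SE 0.11, adjusted p = 8.96e-05). Doxycycline and untreated arrays of each line did not overlap, and the control line with doxycycline held the lowest CDC45 signals of all. As a change of signal these falls came to -31.8% for the shRNA-labelled line and -57.1% for the control line.

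**Figure D2:**
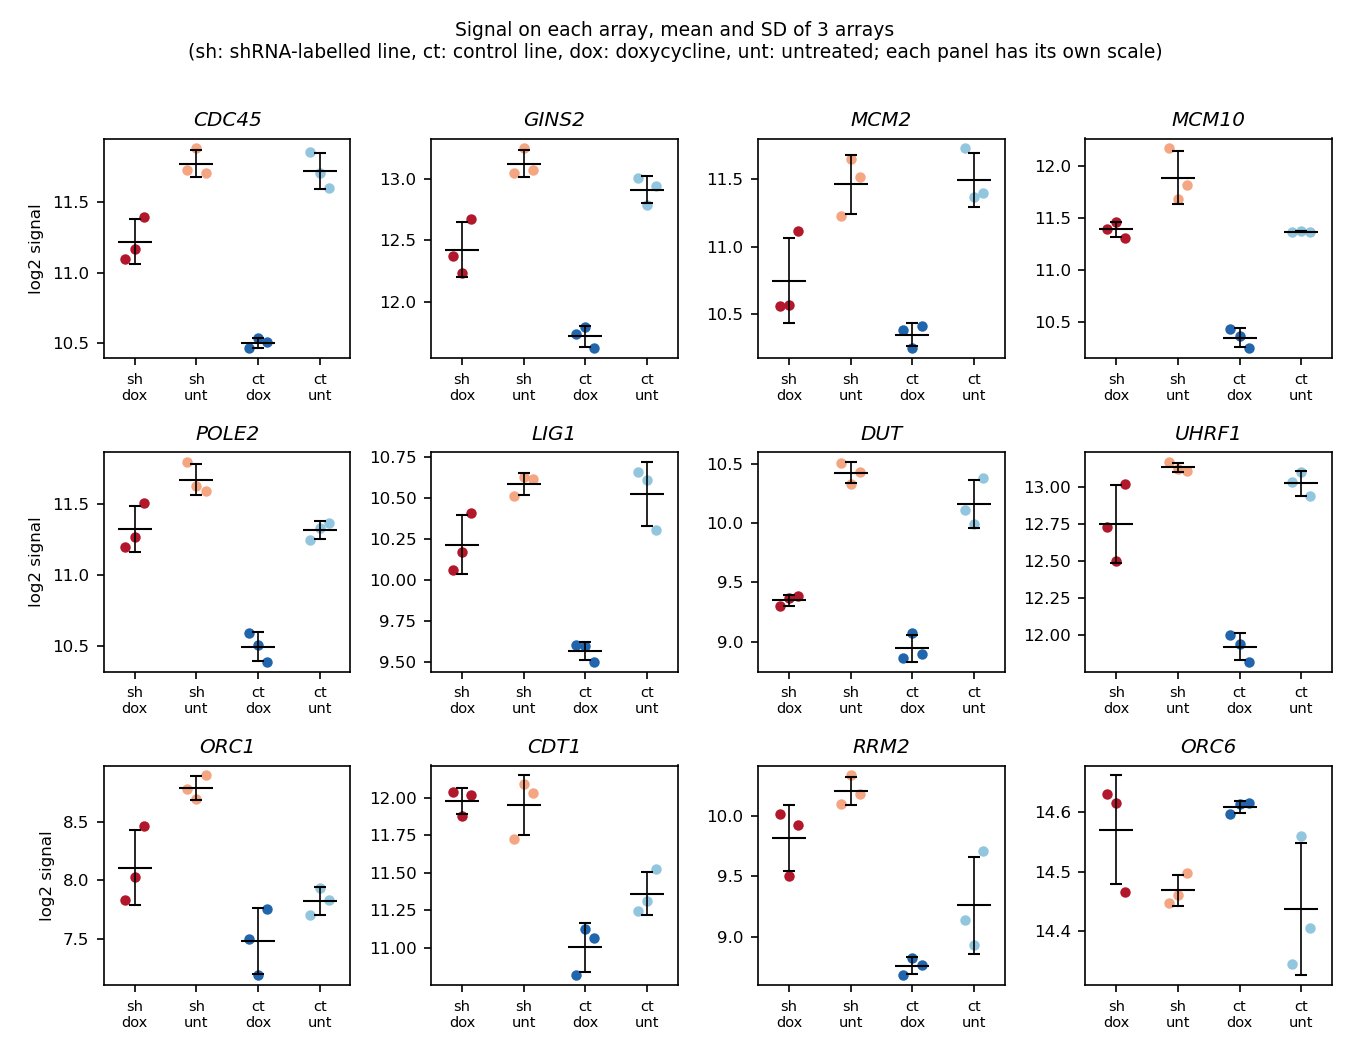
The points are log2 signals of 12 members on single arrays, with the mean and SD of the 3 arrays of each group; each panel has its own scale. CDC45, GINS2, DUT and UHRF1 are lowest in the control line with doxycycline, CDT1 and RRM2 separate the lines more than the treatments, and the ORC6 probe stays within 14.35 to 14.63.

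GINS2, a subunit of the GINS complex, had 12.37, 12.23 and 12.67 with doxycycline in the shRNA-labelled line, against 13.05, 13.25 and 13.08 without it, a fall of 0.70 (SE 0.12, adjusted p = 0.00374). The control line had 11.74, 11.79 and 11.62 with doxycycline, against 13.01, 12.79 and 12.94 without it, a fall of 1.20 (SE 0.12, adjusted p = 0.000192). MCM10, which helps the helicase to start and stays with the fork, had 11.40, 11.46 and 11.32 with doxycycline in the shRNA-labelled line, against 12.17, 11.69 and 11.82 without it, a fall of 0.50 (SE 0.12, adjusted p = 0.0204). No array crossed between treatments for either gene. Control-line signals of MCM10 lay at 10.43, 10.37 and 10.25 with doxycycline, against 11.37, 11.38 and 11.37 without it, a fall of 1.02 (SE 0.12, adjusted p = 0.000379).

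All 6 subunits of the MCM2 to MCM7 ring fell in the control line, by between 0.41 (MCM6, SE 0.09, adjusted p = 0.0116) and 1.15 (MCM2, SE 0.17, adjusted p = 0.00114). In the shRNA-labelled line MCM2 fell by 0.72 (SE 0.17, adjusted p = 0.0182) and MCM6 by 0.34 (SE 0.09, adjusted p = 0.0341), while the other subunits differed by between -0.44 and -0.20 and did not pass. A second MCM4 probe, ILMN_2412860, did pass there (-0.44, SE 0.12, adjusted p = 0.0443 over all kept probes). MCM2 had 10.56, 10.57 and 11.12 with doxycycline in the shRNA-labelled line, against 11.22, 11.65 and 11.52 without it. Array 3 with doxycycline lay closest to the untreated arrays. MCM2 in the control line had 10.38, 10.24 and 10.41 with doxycycline, against 11.73, 11.37 and 11.40 without it.

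The GINS genes did not move together. Beside GINS2, GINS3 fell by 0.68 in the control line (SE 0.11, adjusted p = 0.00157) and differed by -0.29 in the shRNA-labelled line (adjusted p = 0.105). GINS1 rose in the control line, with 7.34, 6.73 and 7.22 with doxycycline, against 6.58, 6.05 and 6.68 without it, a difference of 0.66 (SE 0.20, adjusted p = 0.0452). Its probe was dim, detected on 2 of the 3 untreated control arrays, and the call was lost under most alternatives. In the shRNA-labelled line GINS1 overlapped between treatments. GINS4 fell by 0.49 in the shRNA-labelled line (SE 0.14, adjusted p = 0.0462), where it was detected on 2 of the 3 arrays with doxycycline and on 3 of 3 without it, and this call was lost under 19 of 23 alternatives. GINS4 was not detected on any array of the control line, with or without doxycycline.

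Among the polymerase and primase genes, POLA2 and POLE fell in the shRNA-labelled line, and POLA1, POLA2, PRIM1, POLD1, POLE and POLE2 fell in the control line. These are 2 of 8 and 6 of 8 genes, where 5.01% and 8.11% of all genes tested fell. POLE2, a subunit of the leading-strand polymerase epsilon, had 11.19, 11.26 and 11.50 with doxycycline in the shRNA-labelled line, against 11.79, 11.63 and 11.59 without it. These did not overlap, but the difference of -0.35 (SE 0.11) missed the threshold (adjusted p = 0.0584). POLE2 in the control line had 10.59, 10.51 and 10.39 with doxycycline, against 11.24, 11.33 and 11.36 without it, a fall of 0.82 (SE 0.11, adjusted p = 0.000653). POLE, the catalytic subunit of the same polymerase, fell by 0.53 in the shRNA-labelled line (SE 0.14, adjusted p = 0.037) and by 1.02 in the control line (SE 0.14, adjusted p = 0.000965). POLE lay at 9.69, 10.14 and 10.14 with doxycycline in the shRNA-labelled line, against 10.44, 10.51 and 10.61 without it.

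POLA2, the accessory subunit of polymerase alpha, had 9.79, 9.52 and 10.06 with doxycycline in the shRNA-labelled line, against 10.45, 10.38 and 10.35 without it, a fall of 0.60 (SE 0.13, adjusted p = 0.0118). Its fall in the control line was 0.91 (SE 0.13, adjusted p = 0.00099), to 9.73, 9.67 and 9.48 with doxycycline, against 10.47, 10.56 and 10.58 without it. PRIM1, the catalytic primase subunit that lays the RNA primer, overlapped between treatments in the shRNA-labelled line but not in the control line. It had 12.55, 12.59 and 12.58 with doxycycline in the shRNA-labelled line, against 12.60, 12.77 and 12.48 without it. PRIM1 in the control line had 11.60, 11.95 and 11.63 with doxycycline, against 12.45, 12.48 and 12.42 without it, a fall of 0.72 (SE 0.11, adjusted p = 0.00153). The polymerase delta genes POLD2 and POLD3 passed in neither line.

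The clamp, its loader and the lagging-strand enzymes included RFC2, RFC5 and FEN1, which fell in both lines, and PCNA, RFC3 and LIG1, which fell in the control line. That is 3 of 8 genes in the shRNA-labelled line and 6 of 8 in the control line. Of all genes tested 5.01% and 8.11% fell. FEN1, the nuclease that trims the flaps of Okazaki fragments, had 12.39, 12.36 and 12.71 with doxycycline in the shRNA-labelled line, against 13.03, 13.15 and 12.97 without it, a fall of 0.56 (SE 0.11, adjusted p = 0.00747). FEN1 in the control line had 11.89, 12.01 and 12.09 with doxycycline, against 12.87, 12.77 and 12.85 without it, a fall of 0.83 (SE 0.11, adjusted p = 0.000725). LIG1, the ligase that seals those fragments, had 10.06, 10.17 and 10.41 with doxycycline in the shRNA-labelled line, against 10.51, 10.63 and 10.62 without it. Its arrays did not overlap there, and its difference of -0.37 missed the threshold (adjusted p = 0.0704). LIG1 in the control line had 9.60, 9.59 and 9.50 with doxycycline, against 10.66, 10.61 and 10.30 without it, a fall of 0.96 (SE 0.12, adjusted p = 0.000529).

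Among the loader subunits, RFC1 and RFC4 passed in neither line. RFC2 fell by 0.55 in the shRNA-labelled line (SE 0.10, adjusted p = 0.00395), to 8.81, 8.68 and 8.98 with doxycycline, against 9.41, 9.39 and 9.32 without it. RFC2 in the control line had 8.44, 8.46 and 8.37 with doxycycline, against 9.11, 8.98 and 8.98 without it, a fall of 0.60 (SE 0.10, adjusted p = 0.00195). RFC3 fell by 0.82 in the control line (SE 0.11, adjusted p = 0.000674), where RFC1, the largest subunit, differed by -0.15 and RFC4 by -0.24. In the shRNA-labelled line these 2 differed by 0.00 and 0.11. PCNA, the clamp itself, fell by 0.47 in the control line (SE 0.11, adjusted p = 0.0171) and differed by -0.35 in the shRNA-labelled line (adjusted p = 0.0738).

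The single-strand binding genes passed only in the control line, with 2 of 3 falling, where 8.11% of all genes tested fell. RPA1 fell by 0.38 (SE 0.09, adjusted p = 0.0152) and RPA3 by 0.33 (SE 0.10, adjusted p = 0.0434) in the control line. RPA1 had 12.97, 13.05 and 12.85 with doxycycline there, against 13.43, 13.33 and 13.25 without it, and the groups did not overlap. None of the 3 passed in the shRNA-labelled line, where they differed by between -0.28 and -0.18, and RPA2 passed in neither.

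Among the nucleotide supply genes, DUT had the largest fall of any member in the shRNA-labelled line. DUT encodes dUTPase, which removes dUTP so that uracil is not built into DNA. It had 9.30, 9.37 and 9.39 with doxycycline in the shRNA-labelled line, against 10.51, 10.33 and 10.43 without it, a fall of 1.07 (SE 0.11, adjusted p = 0.000198). DUT in the control line had 8.86, 9.07 and 8.90 with doxycycline, against 10.11, 9.99 and 10.38 without it, a fall of 1.22 (SE 0.11, adjusted p = 0.000126). The percentage change was thus -52.5% for the shRNA-labelled line and -56.9% for the control line. A further DUT probe did not share this fall, as described with the probes below.

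TYMS, thymidylate synthase, fell by 0.53 in the shRNA-labelled line (SE 0.12, adjusted p = 0.0175) and by 0.61 in the control line (SE 0.12, adjusted p = 0.00643). It had 12.50, 12.21 and 12.70 with doxycycline in the shRNA-labelled line, against 13.04, 13.08 and 12.88 without it. TK1, the thymidine kinase of the salvage route, fell by 0.97 in the control line (SE 0.18, adjusted p = 0.00376), to 9.52, 9.48 and 9.72, against 10.71, 10.71 and 10.23 without doxycycline. In the shRNA-labelled line TK1 overlapped between treatments by a narrow margin, with 10.18 on 1 doxycycline array and 10.13 on 1 untreated array, and did not pass (adjusted p = 0.0752). RRM1, the large subunit of ribonucleotide reductase, fell by 0.42 in the control line (SE 0.08, adjusted p = 0.00462). RRM2, its small subunit, differed by -0.39 in the shRNA-labelled line, with -0.50 in the control line, and passed in neither (adjusted p = 0.22 and 0.0934).

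All 4 genes for the copying of chromatin and methylation fell in the control line, where 8.11% of all genes tested fell. UHRF1, which brings the methyltransferase DNMT1 to newly copied DNA, had 12.00, 11.95 and 11.82 with doxycycline there, against 13.03, 13.10 and 12.94 without it, a fall of 1.10 (SE 0.12, adjusted p = 0.000318). In the shRNA-labelled line UHRF1 had 12.73, 12.50 and 13.02 with doxycycline, against 13.16, 13.12 and 13.10 without it, and the difference of -0.38 missed the threshold (adjusted p = 0.0714). DNMT1 fell by 0.62 in the control line (SE 0.09, adjusted p = 0.00132) and differed by -0.26 in the shRNA-labelled line (adjusted p = 0.0995). CHAF1A and CHAF1B, subunits of the assembly factor that places histones behind the fork, fell in both lines. CHAF1A had 8.97, 8.89 and 8.71 with doxycycline in the shRNA-labelled line, against 9.49, 9.31 and 9.60 without it, a fall of 0.61 (SE 0.13, adjusted p = 0.01). The control line gave 8.10, 8.09 and 7.92 with doxycycline, against 8.75, 9.12 and 8.82 without it, a fall of 0.86 (SE 0.13, adjusted p = 0.00117).

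The doxycycline comparisons of the 2 lines share no arrays, so their calls can be set side by side. Both come from the same fit, with a common estimate of each gene's spread, so the calls are not independent. Of the members, 15 fell in both, which is 88.2% of the 17 in the shRNA-labelled line and 45.5% of the 33 in the control line, where 2.05% of all genes tested fell in both. ORC1 fell in the shRNA-labelled line without passing in the control line, and 13 members passed in neither line. GINS4 also fell in the shRNA-labelled line. Its probe was not detected on any array of the control line, so its missing call there says nothing. GINS4 is counted in the 17 and in the correlation that follows. Across the 49 genes the differences of the lines correlated at Pearson's r = 0.78, against 0.51 over all 12566 genes, with genes not being independent replicates.

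**Figure D3:**
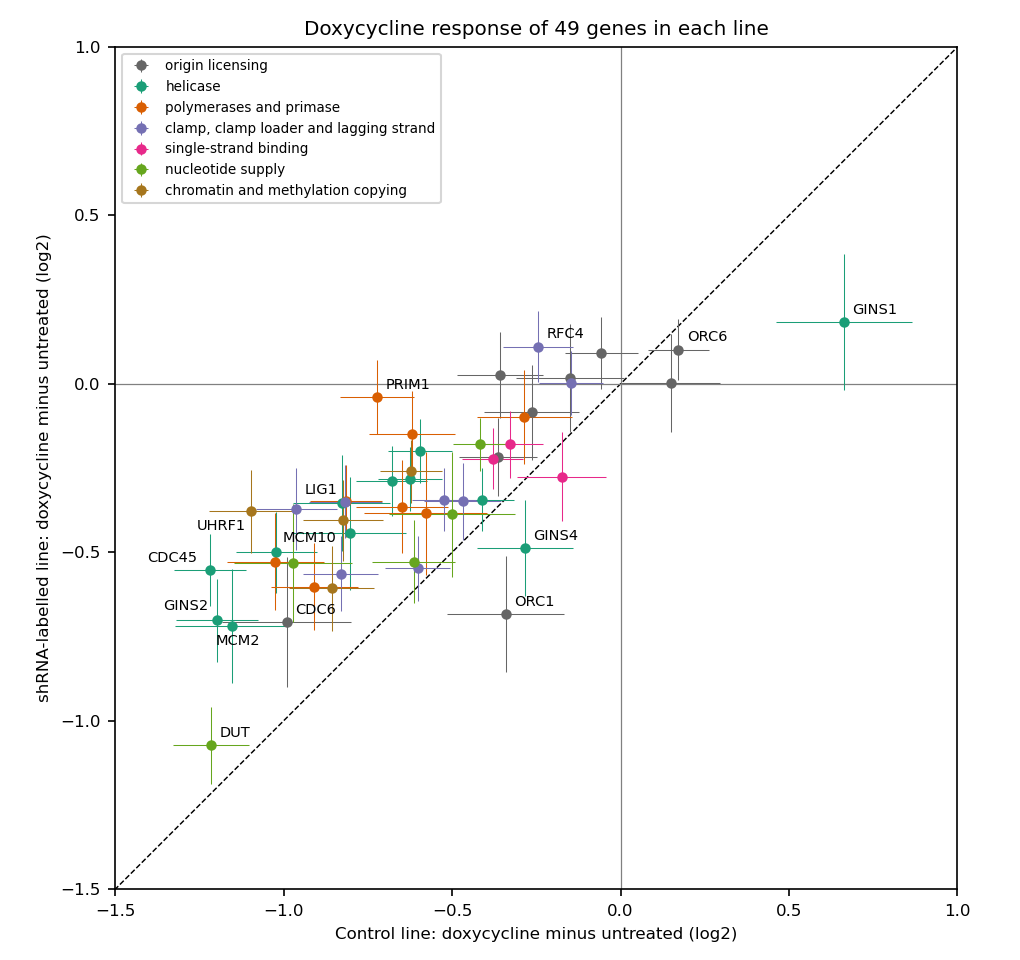
Each point is a member, with its doxycycline difference in the shRNA-labelled line on the vertical axis and in the control line on the horizontal axis, both on the log2 scale with bars of 1 SE, and colours for functional classes. Of the 49 genes 43 lie above the dashed line of equal differences, DUT lies near it at the lower left, and GINS1 is alone at the right. The horizontal position of GINS4 is a fitted value of a probe that was not detected in the control line.

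Whether a gene responded differently in the 2 lines was tested as the difference of the responses, shRNA-labelled line minus control line. No member passed at an adjusted p under 0.05 with limma, where 0.462% of all genes tested passed upward and 0.382% downward, while 17 of the 49 had an unadjusted p under 0.05, where 8.26% of all genes tested had one upward and 7.65% downward. The difference was above 0 for 43 of the 49 members, against 50.8% of all genes, with a median of 0.27 against 0.01. The 6 members below 0 were ORC1, ORC6, GMNN, GINS1, GINS4 and RPA2. GINS4 was not detected in the control line, so its sign says nothing, and without it the median over 48 members was 0.28. The smallest adjusted p values belonged to CDC45 (difference 0.67, SE 0.15, adjusted p = 0.0669), PRIM1 (0.68, SE 0.16, adjusted p = 0.0683) and UHRF1 (0.72, SE 0.17, adjusted p = 0.0803). These 3 passed under 4 of the other settings, with no background correction, with normexp at an offset of 50, with array weights, and with a trended robust variance. For DUT the difference was 0.14, with a 95% interval of -0.21 to 0.49, and for RFC2 it was 0.06, with an interval of -0.24 to 0.35.

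The lines also differed from each other in replication genes. GINS4 is counted here but had to differ, since its probe was kept only through arrays of the shRNA-labelled line, and without it the counts that follow become 12 and 28 of 48. Without doxycycline 13 members were higher and 0 lower in the shRNA-labelled line than in the control line, where 7.46% of all genes tested were higher and 8.87% lower, and the median of the members was 0.15. With doxycycline in both, 29 were higher and 0 lower, where 10.9% of all genes tested were higher and 11.8% lower, and the median was 0.41. These comparisons share their arrays with the doxycycline comparisons above, so they are a second view of the same 12 arrays and no independent support.

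**Figure D4:**
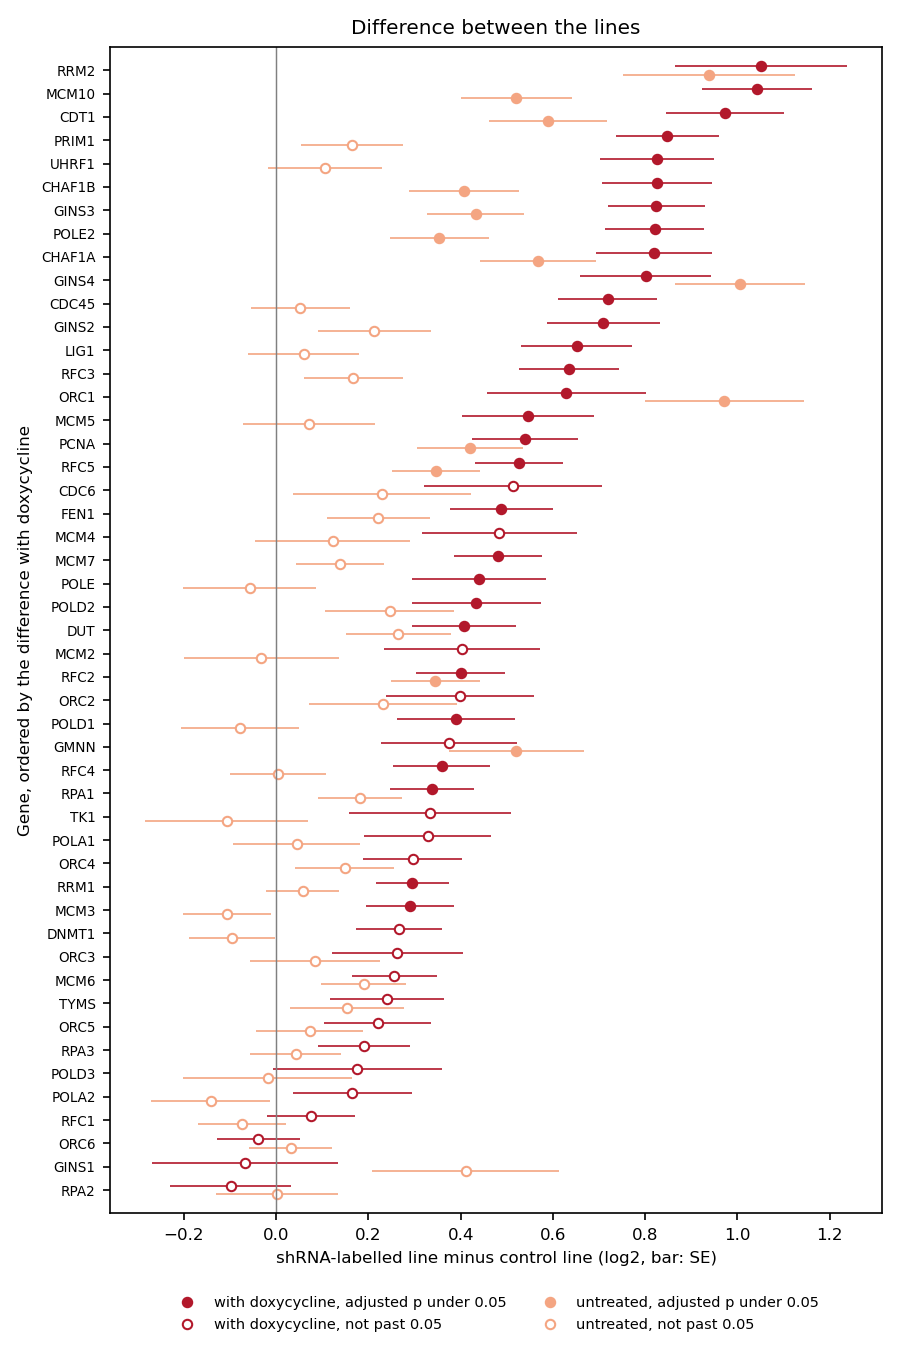
Points give the log2 difference of the shRNA-labelled line minus the control line for each member, with bars of 1 SE, in dark red with doxycycline and in orange without; filled points passed an adjusted p under 0.05. RRM2, MCM10 and CDT1 lead with doxycycline and passed in both states, while PRIM1, UHRF1 and CDC45 passed only with doxycycline. The GINS4 points are fitted values of a probe that was not detected in the control line and was kept only through the shRNA-labelled line, so their fill says nothing.

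Apart from GINS4, the members called higher in the untreated shRNA-labelled line under every alternative tried were ORC1, CDT1 and RRM2. ORC1 had 8.79, 8.70 and 8.90 in the untreated shRNA-labelled line, against 7.70, 7.94 and 7.83 in the untreated control line, a difference of 0.97 (SE 0.17, adjusted p = 0.00347). CDT1 had 11.72, 12.09 and 12.03, against 11.25, 11.31 and 11.52 in the control line, a difference of 0.59 (SE 0.13, adjusted p = 0.0101). RRM2 lay at 10.10, 10.33 and 10.18, against 9.14, 8.94 and 9.71 in the control line, a difference of 0.94 (SE 0.19, adjusted p = 0.00644). No array of the lines overlapped for these 3 genes. GINS4 averaged 6.84 ± 0.21 in the untreated shRNA-labelled line, against 5.84 ± 0.04 in the untreated control line (SD, n = 3 each), where it was not detected, and no test is read from it.

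The other members that were higher in the untreated shRNA-labelled line were GMNN (0.52, SE 0.15), MCM10 (0.52, SE 0.12), GINS3 (0.43, SE 0.11), POLE2 (0.35, SE 0.11), PCNA (0.42, SE 0.11), RFC2 (0.34, SE 0.10), RFC5 (0.35, SE 0.09), CHAF1A (0.57, SE 0.13) and CHAF1B (0.41, SE 0.12), with adjusted p between 0.0115 and 0.0439. Geminin had 13.00, 12.65 and 12.78 in the untreated shRNA-labelled line, against 12.36, 12.25 and 12.26 in the untreated control line. Leaving out an untreated array lowered the count of 13 to 7 without array 1 or 6 without array 3 of the shRNA-labelled line, and to 5, 8 or 8 without arrays 1, 2 or 3 of the control line.

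With doxycycline 7 of 11 helicase genes (GINS4 left out) and 7 of 8 clamp and lagging-strand genes were higher in the shRNA-labelled line. So were 5 of 8 polymerase and primase genes, 3 of 4 for chromatin and methylation, and 3 of 5 for nucleotide supply. Of the origin licensing genes 2 of 9 were higher, and of the single-strand binding genes 1 of 3, where 10.9% of all genes tested were higher. MCM10 had 11.40, 11.46 and 11.32 in the shRNA-labelled line with doxycycline, against 10.43, 10.37 and 10.25 in the control line with it, a difference of 1.04 (SE 0.12, adjusted p = 0.000115). RRM2 lay at 10.02, 9.51 and 9.92, against 8.69, 8.83 and 8.77 in the control line, a difference of 1.05 (SE 0.19, adjusted p = 0.00187). CDT1 gave 12.04, 11.88 and 12.02, against 10.82, 11.12 and 11.07 in the control line, a difference of 0.97 (SE 0.13, adjusted p = 0.000287). The arrays of the lines did not overlap for 39 of the 49 members, always with the shRNA-labelled line higher, where 18.9% of all genes tested stood higher in this way and 20.5% lower. GINS4 is counted among the 39 but says nothing here, since its probe was kept only through the shRNA-labelled line.

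PRIM1 was higher by 0.85 (SE 0.11, adjusted p = 0.00028), CDC45 by 0.72 (SE 0.11, adjusted p = 0.000657), GINS2 by 0.71 (SE 0.12, adjusted p = 0.00162), GINS3 by 0.82 (SE 0.11, adjusted p = 0.000234) and POLE2 by 0.82 (SE 0.11, adjusted p = 0.000275) in the shRNA-labelled line with doxycycline. UHRF1 was higher by 0.83 (SE 0.12, adjusted p = 0.000657), CHAF1A by 0.82 (SE 0.13, adjusted p = 0.000804), CHAF1B by 0.83 (SE 0.12, adjusted p = 0.000526), LIG1 by 0.65 (SE 0.12, adjusted p = 0.00242) and RFC3 by 0.64 (SE 0.11, adjusted p = 0.00148). ORC6, GINS1 and RPA2 alone were not above 0, at -0.04, -0.07 and -0.10.

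Several members were read by more than 1 probe, and a few of these probes disagreed. Of the 49 genes 17 had further kept probes, 21 in all, and their sign matched that of the brightest probe for 18 of them when doxycycline was compared in the shRNA-labelled line and for 15 when it was compared in the control line. Those that did not match in the control line include 2 MCM7 probes that were undetected on some or all of its arrays. No further probe passed in the opposite direction. Many did not pass where the brightest did. Among further probes of genes called by the brightest, 1 of 5 did not pass for doxycycline in the shRNA-labelled line and 6 of 16 in the control line. Between the lines, 2 of 2 such probes did not pass without doxycycline and 9 of 14 with it. RPA1 is an example, whose brightest probe was higher in the shRNA-labelled line with doxycycline by 0.34 (adjusted p = 0.034) while its others differed by -0.03 and 0.08. The DUT probe ILMN_2374778 fell like the brightest, ILMN_1732688, by 1.10 in the shRNA-labelled line (SE 0.15, adjusted p = 0.00185) and by 1.12 in the control line (SE 0.15, adjusted p = 0.00136), adjusted here over all kept probes. The DUT probe ILMN_1721008 differed by only -0.07 in the shRNA-labelled line and by 0.00 in the control line. It had 8.84, 8.92 and 8.81 with doxycycline in the shRNA-labelled line, against 8.84, 8.74 and 9.19 without it, and was detected on all 12 arrays. Which DUT transcripts each probe reads is not given in the sources used here.

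**Figure D5:**
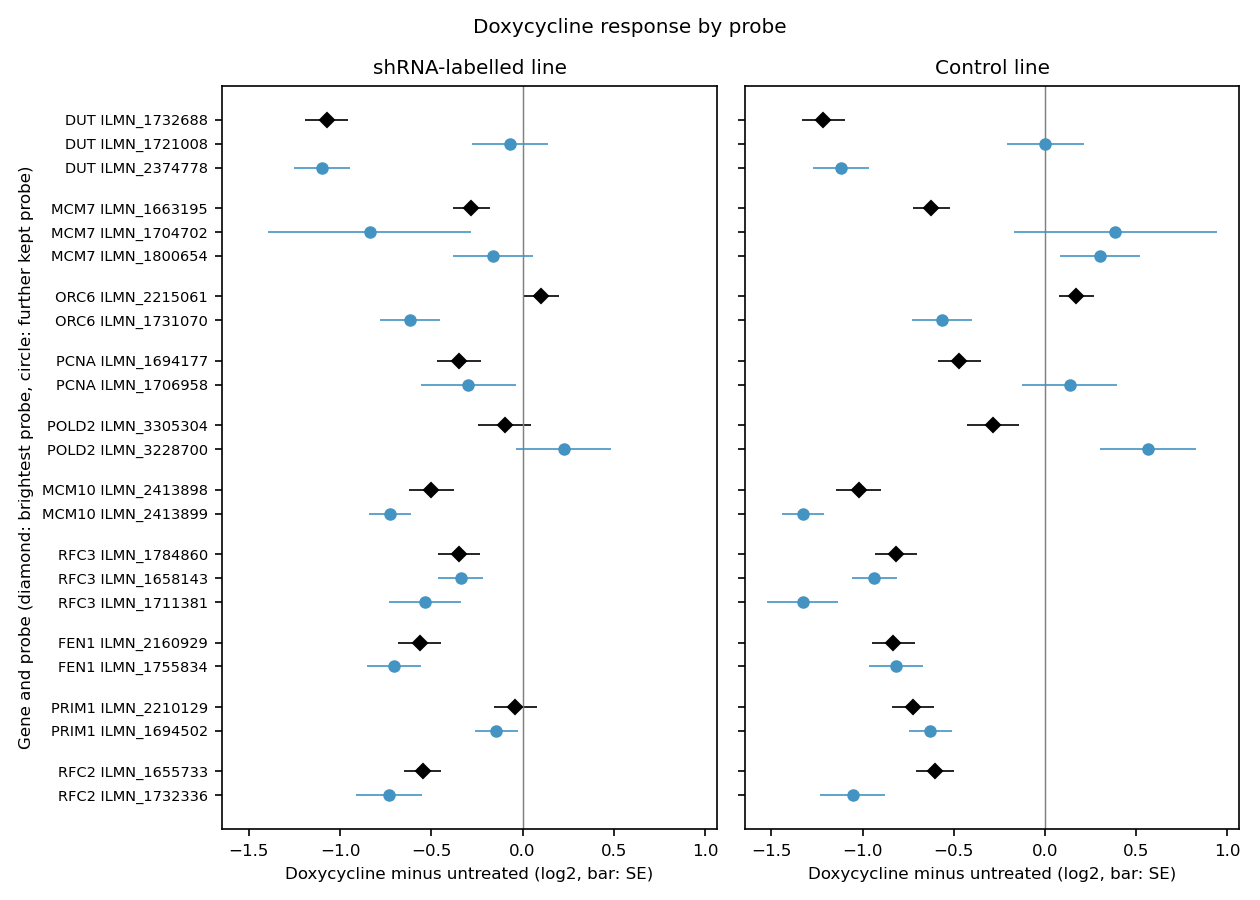
Diamonds give the doxycycline difference of the brightest probe of 10 members and circles that of their further kept probes, on the log2 scale with bars of 1 SE, in the shRNA-labelled line on the left and the control line on the right. For MCM10, RFC3, FEN1 and RFC2 the probes of a gene lie on the same side of 0, while ILMN_1721008 of DUT lies at 0 and the probes of ORC6 lie on opposite sides.

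ORC6, the smallest ORC subunit, gave opposite signs. Its brightest probe, ILMN_2215061, had 14.63, 14.62 and 14.47 with doxycycline in the shRNA-labelled line, against 14.45, 14.46 and 14.50 without it, with raw intensities of 20000 to 30080 over the 12 arrays. That probe lay near the top of the intensity range, with 0.385% of probes brighter, against 18.2% for the other ORC6 probe. The other ORC6 probe, ILMN_1731070, had 10.01, 9.79 and 10.10 with doxycycline in the shRNA-labelled line, against 10.83, 10.45 and 10.48 without it, a fall of 0.62 (SE 0.17, adjusted p = 0.0453 over all kept probes). That second probe had in the control line 9.88, 9.51 and 9.50 with doxycycline, against 10.48, 10.09 and 10.01 without it, a fall of 0.57 (SE 0.17, adjusted p = 0.0498 over all kept probes). So the listing of ORC6 as not passing rests on the choice of the brightest probe, as does that of MCM4 in the shRNA-labelled line. The second MCM4 probe also passed as higher in the shRNA-labelled line with doxycycline (0.60, SE 0.12, adjusted p = 0.00502 over all kept probes), where the brightest did not. For MCM7, 2 dim further probes were detected on 9 and 6 of the 12 arrays, mostly those of the shRNA-labelled line. ILMN_1704702 was detected on 2 of the 3 doxycycline arrays of the control line and on 1 of its 3 untreated arrays. ILMN_1800654 was not detected on any array of that line. Their control-line differences of 0.38 and 0.30 are thus values near background, and are not read against the fall of 0.62 of the brightest probe. Between the untreated lines both dim MCM7 probes were called higher in the shRNA-labelled line (1.98 and 0.95), where the brightest was not (0.14). No test is read from these calls, since the probes were undetected on most or all untreated control arrays. The dimmer PCNA probe differed by 0.13 with doxycycline in the control line, and a further POLD2 probe by 0.56, and neither passed.

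Other genes of the pathway are given by their counts, to be read against the 5.01% of all genes tested that fell and 6.49% that rose in the shRNA-labelled line, and the 8.11% and 7.88% in the control line. Of 21 further fork and origin genes tested, 2 fell (DTL and DSCC1) and 1 rose (POLD4) with doxycycline in the shRNA-labelled line, while 12 fell and 1 rose in the control line. The shares called in the shRNA-labelled line, 9.52% and 4.76%, lay near those of all genes, and 57.1% fell in the control line. Below the threshold, however, 20 of the 21 differences in the shRNA-labelled line were under 0 and 1 was above. Their median was -0.31, against -0.02 over all genes. Its doxycycline arrays lay below all untreated arrays for 12 genes and above them for 1, where 15.5% and 15% of all genes tested did so. DTL, which directs the destruction of CDT1 during S phase, fell by 0.88 in the shRNA-labelled line (SE 0.13, adjusted p = 0.00125) and fell by 1.47 in the control line (SE 0.13, adjusted p = 8.92e-05). POLD4, the small subunit of polymerase delta, rose by 1.25 in the shRNA-labelled line (SE 0.13, adjusted p = 0.00017) and by 1.09 in the control line (SE 0.13, adjusted p = 0.000379), while no listed polymerase gene rose. POLD4 lay at 10.58, 10.90 and 10.54 with doxycycline in the shRNA-labelled line, against 9.25, 9.61 and 9.39 without it, and in the control line at 10.85, 10.99 and 10.92 with doxycycline, against 9.77, 9.98 and 9.74 without it.

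Of 19 further nucleotide pathway genes tested, 1 fell in the shRNA-labelled line, the mitochondrial one-carbon enzyme SHMT2, and 7 fell in the control line, with 0 rising in either. The 1 of 19 (5.26%) is the share of all genes, while 36.8% fell in the control line. SHMT2 fell by 0.34 in the shRNA-labelled line (SE 0.10, adjusted p = 0.0446) and by 0.75 in the control line (SE 0.10, adjusted p = 0.000618). MTHFD1, the folate enzyme of the cytosol, fell by 0.92 in the control line (SE 0.12, adjusted p = 0.000622) and differed by 0.12 in the shRNA-labelled line. It was the only gene of these lists whose difference of responses passed, at 1.04 (SE 0.17, adjusted p = 0.0316).

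Of 13 regulators of replication tested, 3 fell and 1 rose in the shRNA-labelled line, and 6 fell and 1 rose in the control line. The falls came to 23.1% and 46.2%, and 1 rise of 13 (7.69%) is near the share of all genes in either line. E2F2 fell by 0.72 in the shRNA-labelled line (SE 0.11, adjusted p = 0.00211) and by 0.99 in the control line (SE 0.11, adjusted p = 0.000334). E2F7, a repressing E2F, fell by 0.67 in the shRNA-labelled line (SE 0.13, adjusted p = 0.00853) and by 1.08 in the control line (SE 0.13, adjusted p = 0.000529). CCNE1, the cyclin that drives entry into S phase, fell by 0.43 in the shRNA-labelled line (adjusted p = 0.0358) and by 0.59 in the control line (adjusted p = 0.00606). CDKN1A, which encodes the CDK inhibitor p21, rose by 0.70 in the shRNA-labelled line (SE 0.16, adjusted p = 0.0186) and by 1.17 in the control line (SE 0.16, adjusted p = 0.000953). CDKN1A had 11.73, 11.58 and 11.77 with doxycycline in the shRNA-labelled line, against 10.64, 11.27 and 11.07 without it, and in the control line 12.17, 12.17 and 12.45 with doxycycline, against 10.91, 11.33 and 11.05 without it.

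MKI67, the proliferation marker, moved with the members. It had 7.57, 7.94 and 7.59 with doxycycline in the shRNA-labelled line, against 8.34, 8.51 and 8.34 without it, a fall of 0.70 (SE 0.19, adjusted p = 0.037). MKI67 in the control line had 7.06, 7.45 and 6.64 with doxycycline, against 8.20, 7.75 and 8.02 without it, a fall of 0.94 (SE 0.19, adjusted p = 0.00705). With doxycycline in both lines it was higher in the shRNA-labelled line by 0.65 (SE 0.19, adjusted p = 0.0297). Its part in the differences of the members was not tested.

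Markers of other cell types also moved with doxycycline and between the lines. Of the defining markers, PTPRC, VWF, CDH5 and COL1A2 were detected on 0 arrays and COL3A1 and CD3E on 1. The mean of the 4 tested fibroblast markers of 6 listed lay at 8.91 to 9.28 with doxycycline in the shRNA-labelled line, against 8.79 to 9.11 without it, and at 9.35 to 9.65 with doxycycline in the control line, against 8.88 to 8.94 without it. PDGFRB rose by 0.93 in the shRNA-labelled line and by 0.62 in the control line, and LUM rose by 0.95 in the control line. COL1A1 differed by -0.59 in the shRNA-labelled line, with all its doxycycline arrays below the untreated ones, and by 0.58 in the control line, and passed in neither (adjusted p = 0.0996 and 0.0854), while DCN differed by -0.04 and 0.02. The epithelial keratin KRT18 rose by 1.13 in the control line (SE 0.21, adjusted p = 0.00504) and differed by 0.52 in the shRNA-labelled line (adjusted p = 0.154). CD14, the 1 leukocyte marker tested of 4 listed, fell by 0.64 in the shRNA-labelled line and by 0.68 in the control line. PECAM1, the 1 endothelial marker tested of 3 listed, passed in neither line. Between the untreated lines COL1A1 was higher in the shRNA-labelled line by 0.96 (adjusted p = 0.011) and KRT18 by 0.76 (adjusted p = 0.0335), and CD14 was lower, at -0.38 (adjusted p = 0.0426). With doxycycline in both, LUM was lower in the shRNA-labelled line, at -1.19 (adjusted p = 0.00107). Their part in the differences of the members was not tested.

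The count in the shRNA-labelled line leaned on single arrays. Its 17 falling members became 8 without array 1 or array 2 with doxycycline or array 3 without it, and 10 without array 1 without it. CDC45, DUT, FEN1, GINS2 and RFC2 kept their calls in that line under every alternative tried, and 24 members kept theirs in the control line.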

How the data were processed

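RNA of 12 Caco-2 samples was turned into biotin-labelled cRNA for Illumina bead arrays, per the labels. For every probe on every array the deposited table holds the average intensity of its beads, on a linear scale, with a detection p-value next to it, per the file headers. The submitters' processing notes list GenomeStudio and lumi but give them no role. A second deposited table holds values that the authors brought to about a log2 scale and to a common distribution with a median of 6.64, as read from the values, and it served as an alternative. All arrays shared a chip, per the labels, so there was no chip term.

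Background was removed here with limma 3.58.1 (R 4.3.3) by its normal-exponential fit, with negative controls inferred from the detection p-values and an offset of 16, and values were taken to log2 and quantile-normalised. Probes with a detection p-value under 0.05 on at least 3 of 12 arrays were kept (22417 of 47314), and the brightest stood for its gene. Of all probes 30109 had 1 gene symbol, 8 several and 17197 none, and symbols were updated through Entrez identifiers. The 4 group means were fitted over the 12 arrays by lmFit and eBayes of limma, with 5 two-sided contrasts and Benjamini-Hochberg adjustment over 12566 genes. The procedure was tested on simulated data.

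The members, the other lists, the naming rule (every member by its class, the 3 with the smallest adjusted p per class and comparison in full) and the alternatives were chosen with earlier results of these data known. Replicate numbers were not used to pair the arrays in the main fit. Same-number correlations ranged from -0.19 to 0.23, with 6 of 18 over 0.1. They were not set against different-number pairs, so they cannot decide whether the numbers pair the arrays. Signal over background and 3 arrays per group limit the precision. Probes of similar genes can cross-hybridise.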

Additional observations from a re-analysis of the deposited data

How the results depend on the processing

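Among the members no call changed direction under any alternative except MCM7, which differed by 0.021 with doxycycline in the control line when the kept probes of a gene were averaged. That average takes in the dim MCM7 probes, which were undetected on some or all arrays of that line. With doxycycline in the shRNA-labelled line the 17 falling members became 10 with median scaling, 11 with no detection filter, 6 in a fit of the compared groups alone and 29 with array weights, and 8 to 20 without single arrays. Their median of -0.35 became -0.30 with no background correction and -0.45 with median scaling, and lay between -0.40 and -0.31 without single arrays. In the control line the count of 33 falling members became 25 with median scaling, where MCM3, MCM6, MCM7, PCNA, RFC5, RPA1, RPA3, RRM1 and TYMS lost their calls, and lay between 30 and 33 without single arrays, and its median of -0.61 became -0.49 with no background correction and lay between -0.66 and -0.58 without single arrays. GINS1, the 1 rising member, became 0 with no background correction, median scaling, detection on 1 or more arrays or no detection filter. It also became 0 with the compared groups alone, array weights or a trended robust variance, and 0 to 1 without single arrays. With detection required on all 12 arrays GINS1 was not tested, since its probe was detected on 11. For the difference of responses, 0 members passing became 3 with no background correction, an offset of 50, array weights or a trended robust variance, 2 with detection on all 12 arrays, and 0 to 1 without single arrays, 1 being PRIM1 without array 2 of the control line with doxycycline. Its median of 0.27 became 0.18 with median scaling and lay between 0.23 and 0.31 without single arrays. Between the untreated lines 13 higher members became 4 with median scaling and 5 to 13 without single arrays, and the median of 0.15 became 0.22 with median scaling and 0.094 with array weights, and lay between 0.12 and 0.18 without single arrays. Between the lines with doxycycline 29 became 13 with median scaling and 21 to 29 without single arrays, and the median of 0.41 became 0.34 with no background correction and lay between 0.37 and 0.46 without single arrays. The difference of NR5A2 between the untreated lines, 0.00, was -0.031 with median scaling, -0.089 with averaged probes and -0.0347 to 0.0575 without single arrays. Counts over all genes tested moved too. With median scaling the falls went from 630 to 403 in the shRNA-labelled line and from 1019 to 603 in the control line. Genes higher in the shRNA-labelled line went from 938 to 453 untreated and from 1365 to 705 with doxycycline. For doxycycline in that line the median of all genes went from -0.02 to -0.09. The members' median minus that of all genes went from -0.33 to -0.37. The cause of these changes was not tested. With the replicate number as a block the counts were 12, 35, 0, 12 and 27 for the falls in the shRNA-labelled line, the falls in the control line, the difference of responses and the higher members of the untreated and treated lines, and no count moved by more than 1.5 times. Calls held under all alternatives for 5 of 17, 24 of 34, 4 of 13 and 12 of 29 members in the 4 comparisons that had any, with GINS4 among the last 2.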
